A study of Mus musculus with 2 samples.

Results

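The genes described here are 36 transcription factors known for setting regional identity in the forebrain, taken by symbol from a list fixed by name and not by level. All 36 were found among the 32285 genes of the count matrices. The data are single-nucleus RNA counts from the amygdala of C57BL6/J mice aged 6 to 8 weeks, with 2 samples in all. 1 library was labelled wild type (WT) and 1 library was labelled Sema6d-/- (KO), that is, with both copies of the gene of the semaphorin Sema6d altered. The libraries share the strain label, the age range, the tissue and the 5' droplet chemistry, and no label names a treatment. The sources used here give neither the number nor the sex of the animals behind a library, nor which part of Sema6d was altered.

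Transcription factors of the Dlx family act in sequence in the GABAergic lineage of the ventral forebrain. In the medial ganglionic eminence (MGE), Nkx2-1 comes before Lhx6 and Lhx8, and Sox6 and Satb1 act later in interneurons that descend from it, while Prox1 and Sp8 are known from interneurons of the caudal ganglionic eminence (CGE). Meis2, Foxp1, Bcl11b, Six3, Sp9, Isl1 and Ebf1 are known from the lateral eminence and from striatal projection neurons, and Foxp2 and Tshz1 from the intercalated cells of the amygdala. Tbr1 belongs to pallial glutamatergic neurons, Lhx2 and Lhx9 to pallial and thalamic progenitors and neurons, and Sim1 and Otp to hypothalamic and medial amygdala neurons.

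Promoter windows were looked up for these factors because several of them bind short homeodomain or TALE motifs. RefSeq windows of 300 bases, 250 before to 50 after a start site, existed for 29 of the 36 genes in GRCm38.p6, and Dlx5, Dlx6, Foxp2, Nfib, Pbx3, Tshz1 and Zfhx4 had none. The homeodomain core TAATTA was searched on both strands and stood in 3 of 48 windows of these genes (6.25%), against 5.29% of all 32851 windows. The MEIS core TGACAG stood in 9 of the 48 (18.8%), against 19.2% of all windows, and the motifs share no bases in the windows shown. The windows of a neighbouring pair of Dlx genes on chromosome 2, of the pallial factor Tbr1 and of Lhx9 are printed, since these genes mark GABAergic, Slc17a7 and Slc17a6 neurons in the levels that follow. They are written 5' to 3' on the gene's strand with both motifs, in either orientation, in capitals.
Dlx1, chr2:71529195-71529494, plus strand: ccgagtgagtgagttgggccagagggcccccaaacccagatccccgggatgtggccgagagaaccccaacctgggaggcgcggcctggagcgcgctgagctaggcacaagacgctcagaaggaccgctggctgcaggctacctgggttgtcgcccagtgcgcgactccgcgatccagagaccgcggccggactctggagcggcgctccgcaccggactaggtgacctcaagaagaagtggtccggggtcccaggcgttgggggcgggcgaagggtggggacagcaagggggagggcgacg
Dlx2, chr2:71546705-71547004, minus strand: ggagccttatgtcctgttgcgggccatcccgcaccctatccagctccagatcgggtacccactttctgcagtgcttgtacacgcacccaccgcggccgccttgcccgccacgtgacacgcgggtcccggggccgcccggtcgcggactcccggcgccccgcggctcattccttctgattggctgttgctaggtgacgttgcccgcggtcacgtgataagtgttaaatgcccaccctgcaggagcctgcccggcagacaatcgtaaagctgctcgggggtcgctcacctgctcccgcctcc
Tbr1, chr2:61804203-61804502, plus strand: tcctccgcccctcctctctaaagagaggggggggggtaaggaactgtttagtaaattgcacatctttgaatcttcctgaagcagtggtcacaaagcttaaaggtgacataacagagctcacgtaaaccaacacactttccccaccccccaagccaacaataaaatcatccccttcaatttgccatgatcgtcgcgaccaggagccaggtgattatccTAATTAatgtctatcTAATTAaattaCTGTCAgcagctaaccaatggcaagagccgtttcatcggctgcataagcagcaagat
Lhx9, chr1:138842395-138842694, minus strand: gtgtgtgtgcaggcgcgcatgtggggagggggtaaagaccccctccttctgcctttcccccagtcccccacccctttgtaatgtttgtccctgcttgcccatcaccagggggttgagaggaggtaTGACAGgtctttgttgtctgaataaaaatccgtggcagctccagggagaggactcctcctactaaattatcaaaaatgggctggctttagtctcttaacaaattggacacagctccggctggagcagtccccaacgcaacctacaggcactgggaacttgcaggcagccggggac
The Dlx1 and Dlx2 windows were 69.3% and 66.3% G and C, held 27 and 29 CpG dinucleotides and had neither motif. Tbr1 had 46.0% G and C, 7 CpG dinucleotides, 2 copies of TAATTA and 1 of TGACAG, the first bases of which lay at -33, -18 and -7 from the start site. Lhx9 had 55.3% G and C and 1 copy of TGACAG at -125. The shares of windows with each motif were close to those over all genes.

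After filters, the WT library kept 10369 nuclei with 79305700 unique molecular identifiers (UMIs) and the KO library kept 7911 nuclei with 56736373 UMIs, with medians of 7196 and 6418 UMIs per nucleus. The libraries had 128 cell barcodes in common, 112 of them among the kept nuclei. Sema6d itself was at 632 UMIs per 1000000 UMIs in WT and 686 in KO over all kept nuclei. Since the altered part of the gene is not known here, these 5' counts do not check the labels, and WT and KO below mean the libraries so labelled. Neurons had at least 2 UMIs over Rbfox3, Snap25 and Syt1, and were split by the vesicular glutamate transporters Slc17a7 and Slc17a6 and by the GABA-synthesising enzymes Gad1 and Gad2 together (Gad). A group took nuclei with at least 2 UMIs of its marker and at least 80% of the 3 marker sums, which gave 4980 WT and 3005 KO Gad nuclei, 753 and 561 Slc17a7 nuclei, and 149 and 165 Slc17a6 nuclei. Sema6d was higher in the library labelled Sema6d-/- in Slc17a7 nuclei (560 and 677) and in Gad nuclei (684 and 730), and lower in Slc17a6 nuclei (634 and 474, log2 ratio -0.42, -0.56 to -0.27). Another 731 WT and 579 KO nuclei carried mixed markers and 2739 and 2162 passed no gate. The 3 glutamatergic markers, which include both transporters of the gates, summed to 385 and 414 CPM in Slc17a7 nuclei and to 13.6 and 15.2 in Gad nuclei. Of markers outside the gates, those of the basolateral amygdala summed to 980 and 845 CPM in Slc17a7 nuclei, with Camk2a at 857 and 724. They summed to 313 and 279 in Slc17a6 nuclei and 461 and 386 in Gad nuclei. Thalamus markers summed to 302 and 447 in Slc17a6, 232 and 255 in Slc17a7 and 228 and 238 in Gad nuclei. Markers of striatal projection neurons summed to 4853 and 4148 in Gad, 1875 and 1428 in Slc17a7 and 1542 and 1205 in Slc17a6 nuclei. MGE interneuron markers summed to more in Slc17a6 nuclei (1991 and 1647) than in Gad nuclei (629 and 858). Of these, Nxph1 was at 1684 and 1404 in Slc17a6 nuclei and 434.6 and 611.5 in Gad nuclei. In Slc17a6 nuclei 1 glutamatergic marker outside the gates was at 0 in both libraries. No other gene of these lists was at 0 in the 3 groups. Levels are given as UMIs per 1000000 UMIs of the group (CPM) with exact 95% Poisson intervals, which cover counting error only. With 1 library per genotype, no difference between WT and KO could be tested, and no p-value is given.

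Among the neuron groups, 18 of the 36 factors were highest in Gad nuclei in both libraries. Another 10 were highest in Slc17a6 nuclei and 5 in Slc17a7 nuclei, as the heat map of levels by group shows. Intervals of the highest and the next group were apart in both libraries for 16, 7 and 4 of them. No such share over all genes is given, so these counts do not set the factors apart from other genes. Tshz1, Zic1 and Bcl11a had a different highest group in each library. Bcl11a, a zinc-finger factor of many forebrain neurons, was close to even: it stood at 293 CPM in Gad, 325 in Slc17a6 and 306 in Slc17a7 nuclei in WT, and at 295, 291 and 266 in KO. A nucleus thinned to 4000 UMIs had UMIs of a median of 7 factors in WT and 6 in KO in the Gad group, 6 and 5 in the Slc17a6 group, and 4 in both libraries in the Slc17a7 group.

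**Figure D1:**
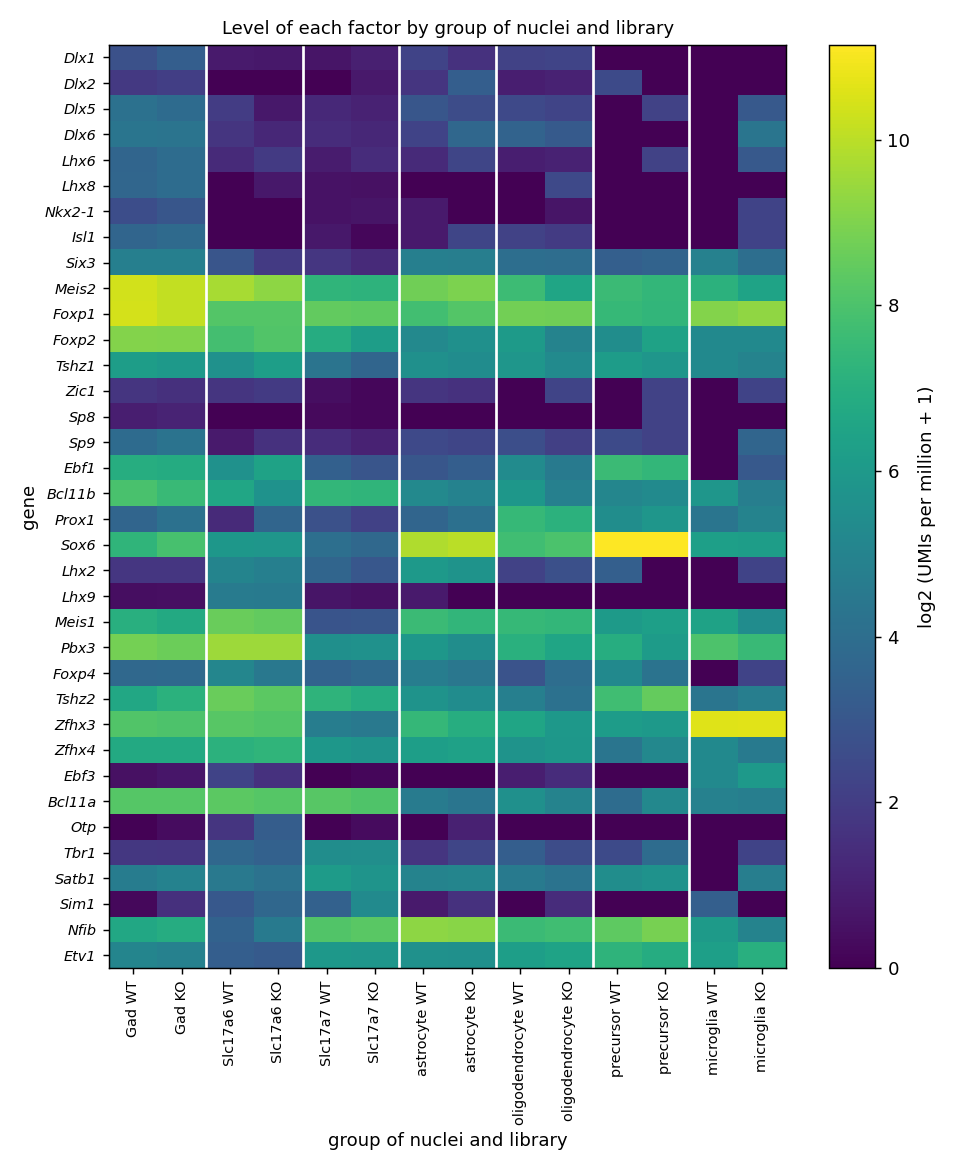
Level of each of the 36 factors (rows) in the 3 neuron groups and 4 glial gates (columns, WT and KO side by side), as log2 of the CPM plus 1; colours are to be read along a row, since levels of different genes are not scaled to gene length. Of the 36 factors, 18 were highest in Gad nuclei among the neuron groups in both libraries, and the WT and KO columns of a group show like patterns.

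The 4 Dlx homeobox genes were highest in Gad nuclei among the neuron groups. Their intervals were apart from those of both other groups in both libraries, except for Dlx2 in WT. In WT Slc17a6 nuclei Dlx2 had 0 UMIs, with an upper bound of 2.77 CPM that overlaps its Gad interval. Dlx1 was at 5.79 CPM (5.10 to 6.55) in WT and 9.19 (8.10 to 10.4) in KO in Gad nuclei, and at 0.559 and 0.955 in Slc17a7 nuclei. Dlx2, its neighbour, was at 2.65 and 3.21 CPM in Gad nuclei, from 116 and 90 UMIs. Dlx5 was at 16.9 CPM in WT and 14.0 in KO, and Dlx6 was at 19.0 and 18.3. In Slc17a6 and Slc17a7 nuclei each of the 4 genes had 0 to 15 UMIs. Counts from the opposite strand limit these values: the antisense genes Dlx1as and Dlx6os1 overlap Dlx1 and Dlx6, stood at 22.1 and 236 CPM in WT and 31.8 and 300 CPM in KO, and whether counting used strand is not given in the sources used here.

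Gad nuclei were divided by genes outside the list into striatal-type (at least 5 UMIs over a set of striatal projection neuron markers, Rgs9, Adora2a and Ppp1r1b among them), Nxph1 and Adarb2 strata, nuclei past several of these and nuclei past none. Nxph1 is a marker of MGE-derived and Adarb2 of CGE-derived interneurons. The strata held 2348, 287, 710, 772 and 863 nuclei in WT and 1151, 243, 470, 564 and 577 in KO. The Dlx genes split across them. Dlx1 was highest in the Nxph1 stratum at 21.1 and 27.1 CPM in WT and KO and lowest in the striatal-type stratum at 0.573 and 0.842, and Dlx2 followed it with 9.86 and 8.13 against 0.430 and 0.749. Dlx6 was highest in the striatal-type stratum at 24.0 and 25.8 CPM and at 11.7 and 9.94 in the Nxph1 stratum. Dlx5 was spread more evenly than these 3, at 14.1 to 22.0 CPM over the strata in WT and 10.1 to 16.1 in KO.

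**Figure D2:**
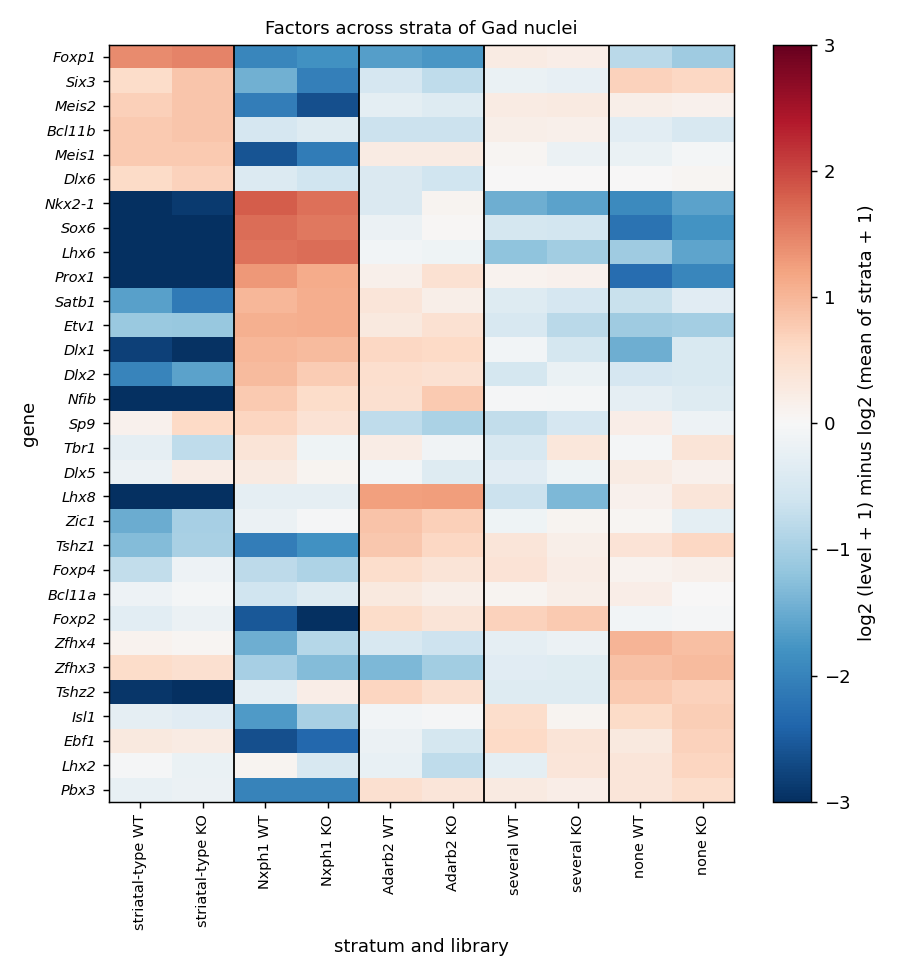
Levels of the factors with at least 50 Gad UMIs in each library in the 5 strata of Gad nuclei (columns, WT and KO), as log2 of the level plus 1 minus log2 of the mean of the strata plus 1 within a library; colours end at 3 on either side. Nkx2-1, Sox6, Lhx6 and Prox1 are high in the Nxph1 columns and low in the striatal-type columns of both libraries, and Foxp1, Meis2 and Bcl11b show the reverse.

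Most MGE factors were concentrated in the Nxph1 stratum. Nkx2-1, the homeobox gene at the head of MGE identity, was at 49.7 CPM (111 UMIs) in WT and 41.1 (91 UMIs) in KO in the Nxph1 stratum and at 0.239 and 0.842 in the striatal-type stratum. Lhx6, a LIM-homeobox gene of MGE interneurons, was at 79.8 CPM in Nxph1 nuclei in WT, from 178 UMIs, and at the same level in KO, from 177 UMIs (log2 ratio 0.00), against 21 and 17 UMIs in the larger striatal-type stratum. Sox6 was at 1086 and 1192 CPM against 5.83 and 6.08. The libraries gave the same order for all 3 genes, and their Nxph1 and striatal-type intervals did not overlap. Lhx8, the LIM-homeobox gene of cholinergic neurons, was placed otherwise: it was highest in the Adarb2 stratum at 42.7 and 47.6 CPM and at 14.3 and 15.8 in the Nxph1 stratum. Satb1, a chromatin-binding factor of MGE interneurons, was highest among the Gad strata in Nxph1 nuclei at 76.6 and 89.4 CPM. Over all Gad nuclei Satb1 stood at 25.0 and 29.3 CPM, below the 68.9 and 53.8 of Slc17a7 nuclei. Etv1, an ETS factor, was also highest in the Nxph1 stratum, at 101 and 82.2 CPM.

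Most nuclei had no UMI of the low MGE factors at the depth at hand. Of Gad nuclei thinned to 1000 UMIs, 1.35% in WT and 1.23% in KO had an Lhx6 UMI, and unthinned the shares were 6.29% and 8.75% at median depths of 8023.5 and 8493 UMIs. In oligodendrocytes, which should lack Lhx6, 0.251% and 0.253% of thinned nuclei had a UMI and 0.247% and 0.249% unthinned, at medians of 2007 and 1893.5 UMIs. For Sox6, 553 of 4980 WT Gad nuclei (11.1%, exact 95% binomial interval 10.2 to 12.01) and 503 of 3005 KO nuclei (16.7%, 15.4 to 18.1) had at least 3 UMIs, and these held means of 11.7 and 13.1 UMIs each.

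Among the CGE factors, Prox1, a homeobox gene that CGE interneurons keep into adulthood, was at 51.5 CPM in WT and 52.8 in KO in Nxph1 nuclei and at 22.7 and 33.0 in Adarb2 nuclei. Prox1 was thus highest in the stratum of the MGE marker in both libraries. Sp8, a zinc-finger factor of CGE interneurons, was close to the floor, with 40 and 32 UMIs over all Gad nuclei (0.915 and 1.14 CPM), so that no stratum could be ranked. Nfib, a nuclear factor I gene, was at 281 and 234 CPM in Nxph1 nuclei, 228 and 272 in Adarb2 nuclei and 12.5 and 13.9 in striatal-type nuclei.

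The factors of striatal projection neurons showed the opposite arrangement. Foxp1, a forkhead gene, was at 2238 CPM in WT and 2117 in KO in striatal-type nuclei and at 215 in both libraries in Nxph1 nuclei. Meis2, a TALE homeobox gene, was at 1673 and 1583 CPM against 242 and 141. Bcl11b, the zinc-finger factor also known as Ctip2, was at 329 and 272 CPM against 134 and 117. Each of these genes was highest in striatal-type nuclei in both libraries, as were Dlx6 and Meis1, the last at 172 and 156 CPM. Six3, a homeobox gene of striatopallidal precursors, was at 32.9 and 39.7 CPM in striatal-type nuclei and at 36.4 and 34.3 in nuclei past no stratum, so its highest stratum differed by library. Six3 stood at 27.0 and 26.8 CPM over all Gad nuclei and at 27.4 and 26.6 in astrocytes, and Six3os1 overlaps it. Sp9, a zinc-finger factor needed for striatopallidal neurons, was at 15.9 CPM in WT and 25.9 in KO in striatal-type nuclei and at 23.3 and 23.0 in Nxph1 nuclei, and the gene Cir1 overlaps it.

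Foxp2, the forkhead gene of intercalated and striatal neurons, was highest in nuclei past several strata at 836 CPM in WT and 819 in KO, with 413 and 424 in striatal-type nuclei and 87.8 and 55.6 in Nxph1 nuclei. Tshz1, a teashirt zinc-finger gene of intercalated cells, was at 144 and 102 CPM in Adarb2 nuclei and 110 and 103 in nuclei past no stratum. These nuclei, defined by no marker, also held the highest levels of Tshz2, Zfhx3, Zfhx4 and Isl1 in both libraries. Zfhx3 and Zfhx4, large homeodomain zinc-finger genes, were at 424 and 462 CPM and at 206 and 196 CPM there. Isl1, a LIM-homeobox gene of striatonigral and cholinergic neurons, was at 16.9 and 22.9 CPM. Ebf1, a helix-loop-helix factor of striatonigral neurons, was high in several strata at 91.0 to 158 CPM in WT but at 15.7 in Nxph1 nuclei, and at 70.3 to 165 CPM in KO with 19.0 in Nxph1 nuclei. Pbx3, a partner of Meis proteins, was at 606 CPM in WT in Adarb2 nuclei and at 550 in KO in nuclei past no stratum, its respective highest strata.

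In Slc17a7 nuclei the marked factor was Tbr1, a T-box gene of pallial glutamatergic neurons. Tbr1 was at 42.9 CPM (38.7 to 47.4) in WT and 43.9 (39.3 to 49.0) in KO, against 2.45 and 2.35 in Gad nuclei, a ratio of 17.5 and 18.7. Of Slc17a7 nuclei thinned to 1000 UMIs, 4.78% and 4.99% had a Tbr1 UMI, against 4 of 399 WT and 4 of 789 KO oligodendrocytes. Unthinned, 35.9% and 38.7% of Slc17a7 nuclei had one at median depths of 11032 and 11557 UMIs, against 1.98% and 1.12% of oligodendrocytes. Nfib was at 274 and 315 CPM in Slc17a7 nuclei, 2.71 and 2.63 times its Gad level, and Etv1 was at 59.8 and 56.8, 1.81 and 1.97 times its Gad level. Sim1, a bHLH-PAS factor, was at 10.1 CPM in WT and 39.2 in KO, and is described with the library ratios.

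In Slc17a6 nuclei, the smallest group, the LIM-homeobox genes Lhx9 and Lhx2 were at their highest level among the neuron groups. Lhx6, Lhx8 and Isl1 of the same class were highest in Gad nuclei. Lhx9 was at 24.0 CPM (16.4 to 33.9) in WT and 23.4 (16.3 to 32.6) in KO, against 0.559 and 0.409 in Slc17a7 nuclei and 0.320 and 0.392 in Gad nuclei. Its relative Lhx2 was at 31.5 and 26.8 CPM, against 11.4 and 7.23 in Slc17a7 nuclei. Meis1 was at 386 and 358 CPM, 2.94 and 3.28 times the Gad level, and in Slc17a7 nuclei at only 6.48 and 6.96. These 3 genes had the same highest group in both libraries. Pbx3 was at 735 and 729 CPM, 1.66 and 1.84 times its Gad level, and Tshz2 was at 381 and 323, 2.49 and 2.35 times the next group. Zfhx3 was at 307 and 273 CPM, with intervals that overlapped those of Gad nuclei, at 274 and 264. Zfhx4 was at 142 and 157, Foxp4, a forkhead gene, was at 33.8 and 20.8, and Otp, a hypothalamic homeobox gene, had 3 and 13 UMIs. Ebf3 had 5 and 3 UMIs in this group and Zic1 had 3 and 4, too few for a firm rank. Otp and Ebf3 are nevertheless among the 10 factors counted as highest in Slc17a6 nuclei, on these few UMIs.

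Glia also carried members of the list, and for 8 of the 36 a glial gate lay above all 3 neuron groups with intervals apart in both libraries. The share of all genes placed so is not given, and the count describes these factors only. Sox6 was at 2266 CPM in WT and 2238 in KO in oligodendrocyte precursors, where it holds back maturation, and at 913 and 1012 in astrocytes. Zfhx3 was at 1553 and 1593 CPM in microglia, and Nfib, a driver of astrocyte fate, was at 617 and 578 in astrocytes. Lhx2 was at 62.3 and 52.2 CPM in astrocytes, and Prox1 was at 174 and 143 in oligodendrocytes. These 5 genes were higher in a glial gate than in the neuron groups in both libraries. The other 3 were Ebf1 (precursors, 194 and 164 CPM), Ebf3 (microglia, 38.1 and 64.3) and Etv1 (precursors, 152 and 118 against 76.2 and 129 in microglia). The Ebf3 levels in microglia rest on 4 UMIs in WT and 17 in KO. In the 24 WT and 32 KO nuclei gated as vascular, Ebf1 reached 1583 and 1806 CPM.

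Pairs of factors were counted in the same Gad nuclei. After thinning to 4000 UMIs, 4724 WT and 2815 KO Gad nuclei remained, and 315 of 630 pairs had at least 10 expected nuclei in each library. Observed over expected counts were above 1 in both libraries for 115 pairs and below 1 for 161, with 95% intervals beyond 1 in both for 50 and 97. Pairs of other genes were not set beside these counts. None of the 315 pairs had intervals of the libraries apart. Pairs share nuclei, libraries and strata, so these ratios describe a mixed group.

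Sox6 stood in 4 of the 5 highest pairs with at least 10 expected nuclei. Of 95 WT nuclei with an Nkx2-1 UMI, 67 also had a Sox6 UMI (70.5%, against 12.1% of nuclei without Nkx2-1), and of 56 KO nuclei 44 did (78.6% against 16.9%), 5.30 and 4.34 times the expected number. Lhx6 with Sox6 followed at 4.73 and 3.72 times, and Lhx8 with Sox6 was at 3.44 and 2.83. Prox1 shared nuclei with Nfib at 3.86 and 3.48 times the expected number and with Sox6 at 3.55 and 3.17. The lowest pairs set these factors against those of striatal projection neurons. Lhx8 and Ebf1 were found together in 2 WT nuclei where 26.8 were expected and in no KO nucleus where 19.6 were expected. Lhx8 and Six3 were at 0.134 and 0.0884 of the expected number, Ebf1 and Prox1 at 0.143 and 0.0961, Lhx6 and Six3 at 0.165 and 0.151, and Nkx2-1 and Foxp2 at 0.243 and 0.164.

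**Figure D3:**
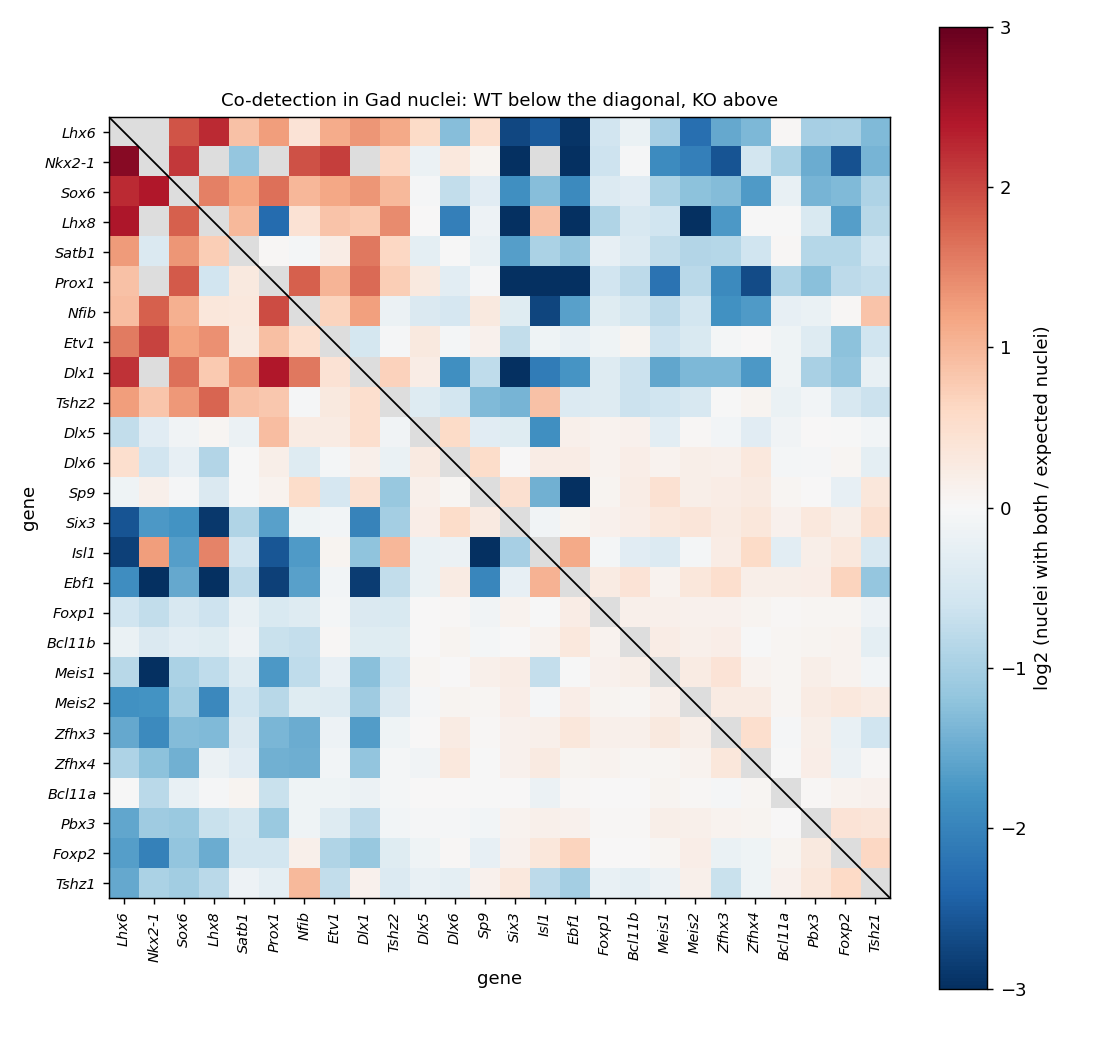
Observed over expected nuclei with UMIs of both genes of a pair in Gad nuclei thinned to 4000 UMIs, as log2; cells below the diagonal are WT and cells above it KO, grey cells had fewer than 3 expected nuclei, pairs with 0 nuclei are drawn as 0.5 nuclei, and colours end at 3 on either side. In the cells drawn, Lhx6, Nkx2-1, Sox6 and Lhx8 are above the expected number with one another and below it with Ebf1, Six3 and Meis2 in both libraries, while Lhx8 with Prox1 is below it, from 3 nuclei in WT and 1 in KO.

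Pairs chosen by name covered known partners. Nkx2-1 was found with Lhx6 at 6.61 times the expected number in WT (23 nuclei where 3.48 were expected) and at 4.84 times in KO (13 where 2.69 were expected). Nkx2-1 with Lhx8 was at 7.35 and 8.31 times, and Lhx6 with Lhx8 at 5.38 and 4.71. All 3 pairs had lower bounds above 1 in both libraries. Foxp2 with Tshz1, both known from intercalated cells, was at 1.53 and 1.54, and Ebf1 with Isl1 at 2.07 and 2.20. Tshz1 with its relative Tshz2 lay below 1, at 0.747 and 0.643, with upper bounds of 0.913 and 0.811. Within the Dlx family, Dlx1 and Dlx2 were at 7.25 in WT from 9 nuclei and at 3.25 in KO from 3, where the KO interval reached down to 0.670. Dlx5 and Dlx6 were at 1.21 and 1.48 with intervals that took in 1. Bcl11a with Bcl11b was at 1.01 and 1.04, close to the expected number.

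Other genes that went with each factor were ranked by the ratio of their level in nuclei with a UMI of the factor to that in nuclei without, after thinning to 4000 UMIs, and ordered by the lower of both libraries. Lists were made for 24 factors and not for the other 12. Most of these 12 had fewer than 50 nuclei with a UMI in a library. Tshz1 (867 WT and 526 KO Gad nuclei) and Bcl11a (83 and 79 Slc17a6 nuclei) had more, and their highest group differed by library. For Lhx8 in Gad nuclei the first gene was Slc5a7, the choline transporter, at 146 CPM with and 6.87 without in WT, and 154 and 2.31 in KO. For Lhx6 it was Nos1, the neuronal nitric oxide synthase, at 163 CPM with and 16.4 without in WT, and at 144 CPM with Lhx6 in KO, followed by Moxd1 and by Npy, the gene of neuropeptide Y. Vip, the gene of vasoactive intestinal peptide, led for Prox1 at 189 and 2.90 CPM in WT and 189 and 7.80 in KO. These leading genes are known from cholinergic, nitrergic and VIP neurons. Sox6 went with Crhbp, Sfta3-ps and Moxd1, and Nkx2-1 with Sfta3-ps, Il1rapl2 and Egfr. Genes that went with Isl1 included Tacr1 and Kcnt2, and Sp9 went with Egfr, Chst9 and Drd2, the dopamine receptor gene of striatopallidal neurons. For Meis2 and Foxp1 the leading genes were the same, Tspear and Gli3. Genes that went with Tbr1 in Slc17a7 nuclei included Sema5a, at 1.71 times in WT and 2.02 in KO, and Tmem163, at 1.51 and 1.83 times. The first partner of Dlx1 was Dlx1as, whose reads overlap it.

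The ratio of KO to WT was taken for factors with at least 100 UMIs over both libraries in a group, and a ratio of at least 1.5-fold in either direction was counted. In Gad nuclei 31 of the 36 were measured so, and 2 of them were higher in KO (Dlx1 and Sox6) and 0 lower, against 3.79% of all 14237 genes higher and 2.2% lower (5.99% either way). The median log2 ratio over the 31 was -0.02, against 0.04 over all genes. Since UMIs are summed over the group, more nuclei of a kind and more RNA per nucleus cannot be told apart in these levels. Beside them, the share of the striatal-type stratum was 47.1% of Gad nuclei in WT and 38.3% in KO, and that of the Nxph1 stratum 5.76% and 8.09%. The summed level of 6 MGE interneuron markers was 629 and 858 CPM in Gad nuclei, and none was at 0. Nxph1, which defines that stratum, made up 434.6 and 611.5 of it, so the sum is not separate from the stratum share. All 6 were higher in KO, but the log2 ratio of Pvalb was 0.03 (-0.37 to 0.42).

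Dlx1 (chr2:71528113-71533981 in mm10, plus strand) had 253 UMIs in WT and 258 in KO over Gad nuclei, 5.79 and 9.19 CPM, a log2 ratio of 0.67 (counting interval 0.41 to 0.92). With the strata given the same weights in both libraries the log2 ratio was 0.40. Sox6 (chr7:115470872-116038796, minus strand) stood at 155 CPM (151 to 159) in WT and 241 (235 to 247) in KO, a log2 ratio of 0.64 (0.59 to 0.69), and 0.27 with the same weights. Within the strata the log2 ratio of Sox6 was 0.13 in Nxph1 nuclei, 0.46 in Adarb2 nuclei, 0.06 in striatal-type nuclei, 0.20 in nuclei past several strata and 0.66, past 1.5-fold, in nuclei past none. Prox1 had 11.3 and 16.8 CPM, a log2 ratio of 0.58 and 0.28 with the same weights, and Nkx2-1 had 5.19 and 6.87, 0.40 and 0.02. Lhx6, at 11.4 and 14.1 CPM, had 0.31 and with the same weights -0.03. Of the factors known from striatal projection neurons, 3 lay farthest below 0: Bcl11b was at 245 and 184 CPM (log2 ratio -0.41, and -0.31 with the same weights), Foxp1 at 1378 and 1122 (-0.30 and -0.11) and Meis2 at 1327 and 1119 (-0.25 and -0.15). None of these 3 passed 1.5-fold. Ebf1 was also below 0 but nearer to it (-0.09, with a counting interval clear of 0, and -0.06 with the same weights). Six3 was close to 0 (-0.01 and 0.09). Sp9 (0.37 and 0.42) and Isl1 (0.22 and 0.20) were higher in KO, both below 1.5-fold. The same-weight values hold only the shares of these strata equal. Kinds of nuclei mixed within a stratum are not separated by them. The cause of the differing shares was not tested.

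**Figure D4:**
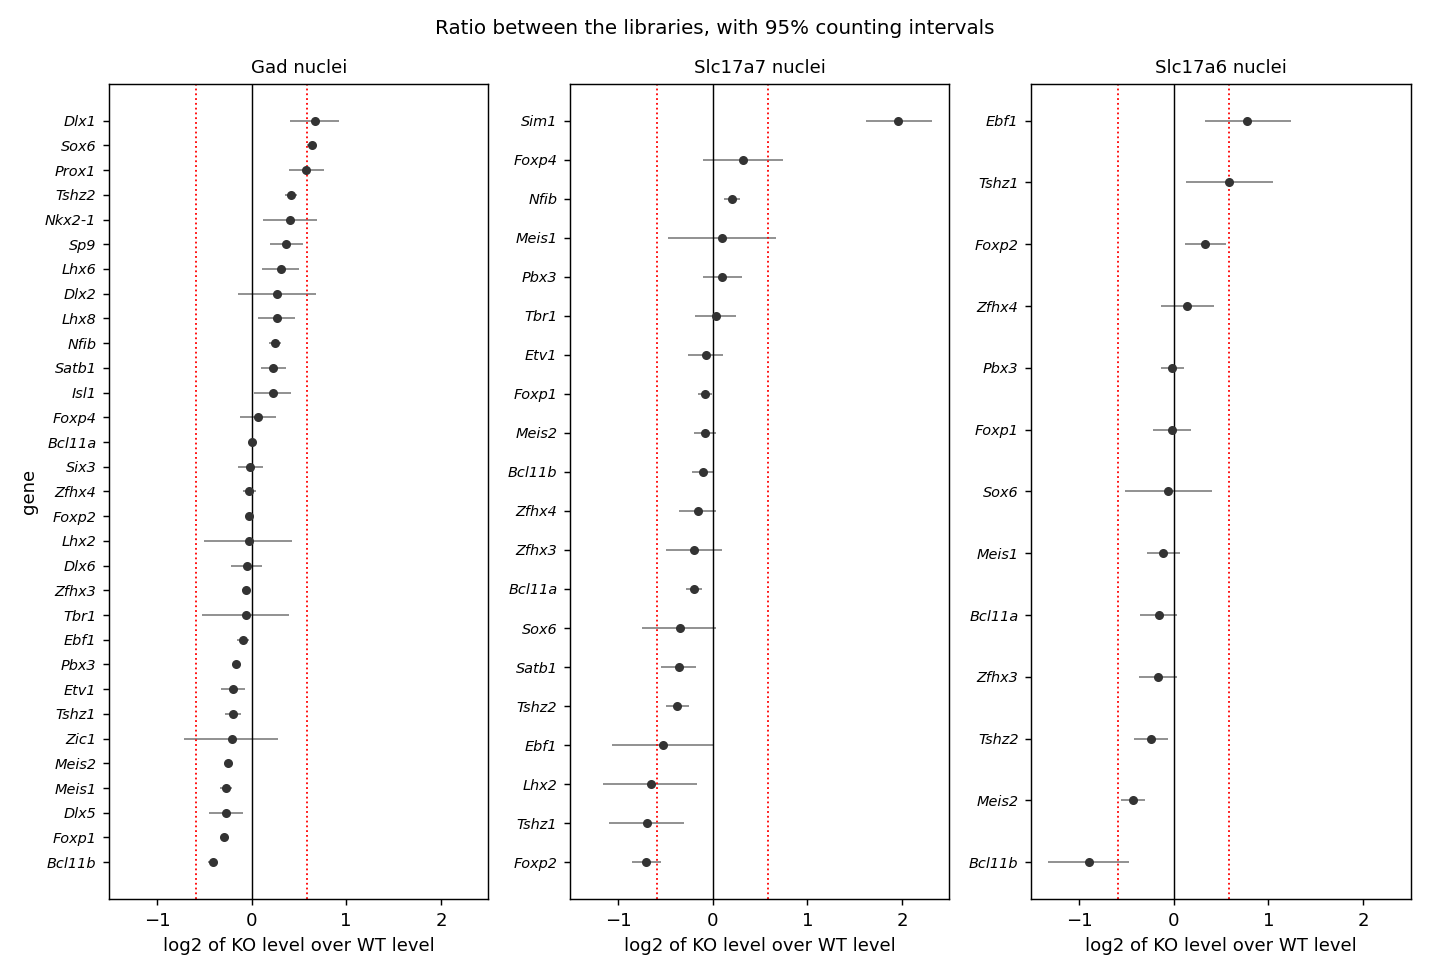
Log2 of the KO over the WT level of each factor with at least 100 UMIs in Gad (31 factors), Slc17a7 (20) and Slc17a6 (13) nuclei, with 95% counting intervals; dotted lines mark 1.5-fold. Most factors lie between the dotted lines, and Sim1 in Slc17a7 nuclei lies farthest out at 1.96.

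**Figure D5:**
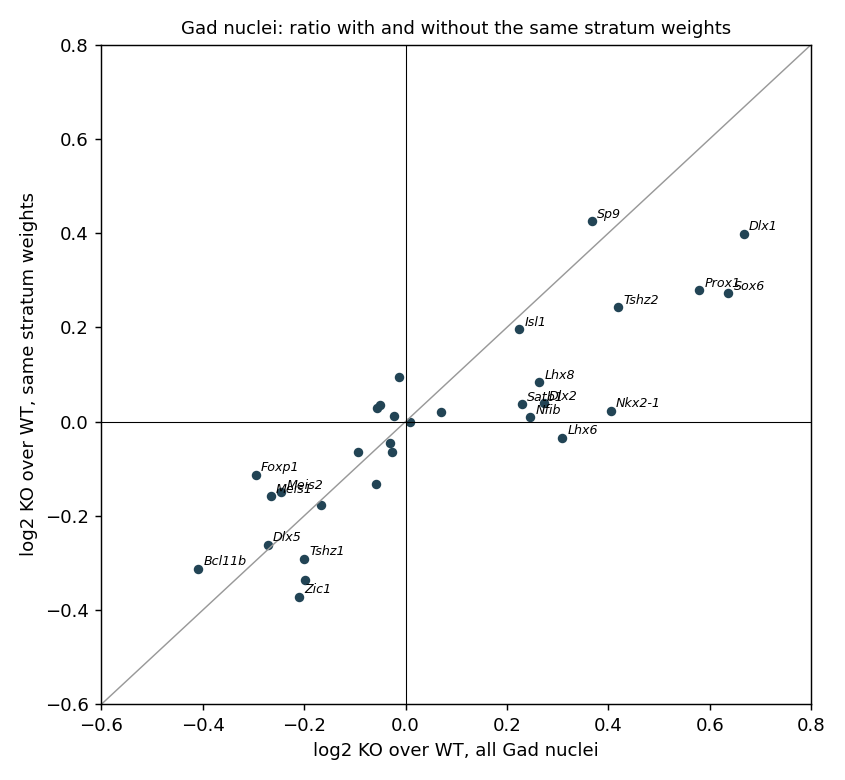
Log2 ratio of KO over WT in Gad nuclei when summed over all of them (x axis) and when the 5 strata have the same weights in both libraries (y axis); each point is a factor and the line marks equal values. Dlx1, Sox6, Prox1, Nkx2-1 and Lhx6 lie below the line on the right, and Foxp1, Meis1 and Meis2 lie above it on the left.

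In Slc17a7 nuclei, 20 factors were measured, 1 was higher in KO (Sim1) and 3 were lower (Foxp2, Tshz1 and Lhx2), against 3.8% of all 10595 genes higher and 2.98% lower (6.79% either way). The median log2 ratio was -0.13, against 0.02 over all genes. Sim1 (chr10:50894754-50989152, plus strand), needed for neurons of the hypothalamus and known from the amygdala, had 90 UMIs in WT and 287 in KO, 10.1 CPM (8.09 to 12.4) and 39.2 (34.8 to 44.0), a log2 ratio of 1.96 (1.62 to 2.32). Foxp2 was at 117 and 72.0 CPM (log2 ratio -0.70, -0.86 to -0.55), Tshz1 at 18.5 and 11.5 (-0.69, -1.09 to -0.31) and Lhx2 at 11.4 and 7.23 (-0.66, -1.16 to -0.16). Beside these, the summed level of 3 claustrum markers was 256 CPM in WT and 183 in KO with none at 0, and that of 4 oligodendrocyte markers 92.7 and 150 with none at 0. Their part in the ratios was not tested.

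The Sim1 counts came from few nuclei, which were looked at after its ratio was known. In Slc17a7 nuclei 11 of 753 in WT (1.46%, 0.731 to 2.60) and 32 of 561 in KO (5.70%, 3.93 to 7.96) had at least 3 Sim1 UMIs, and they held 81 of its 90 UMIs in WT and 279 of 287 in KO. Their means were 7.36 UMIs in WT and 8.72 in KO, so the share of such nuclei differed by more than the UMIs of each. In the mixed Slc17a7 and Slc17a6 gate 3 of 50 nuclei in WT and 12 of 70 in KO met this minimum. The mixed Slc17a7 and Gad gate had 0 of 148 and 4 of 99, the mixed Slc17a6 and Gad gate 0 of 34 and 0 of 36, the gate mixed for all 3 markers 0 of 8 and 4 of 11, and other mixed nuclei 5 of 491 and 24 of 363. Over all neuron groups, mixed ones included, the WT library held 20 such nuclei (0.302%, 0.185 to 0.467) and the KO library 82 (1.90%, 1.52 to 2.36). In Gad nuclei 3 in KO and 0 in WT met this minimum, and the 3 had a median of 95452 UMIs. In Slc17a7 nuclei, 7 markers of the hypothalamus and medial amygdala summed to 69.3 CPM in WT and 74.5 in KO (4 of 7 higher in KO, 1 at 0 in WT). With 1 library per genotype, genotype and any other difference between the libraries cannot be told apart.

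In neurons with at least 3 Sim1 UMIs, Slc17a7 was at 299 CPM in WT and 271 in KO and Slc17a6 at 107 and 79.9. Both were above the other neurons, at 82.3 and 98.1 and at 19.7 and 31.0. The other neurons, 6593 in WT and 4228 in KO, were mostly Gad nuclei. Slc17a7 was at 379 and 407 CPM in the Slc17a7 group and Slc17a6 at 344 and 387 in the Slc17a6 group. Among the genes highest over other neurons were Sh3d19, Zeb2, Ptprk, Astn2 and Slit2, at 4.09 to 6.18 times in WT and 4.25 to 5.90 times in KO. Zeb2 is a zinc-finger factor and Slit2 an axon guidance ligand. Of the factors, Tbr1 was at 22.3 and 26.9 CPM in these neurons, from 5 and 33 UMIs, and at 11.2 and 11.9 in the others. In KO Tbr1 was lower in these neurons than in the Slc17a7 group. The lower WT value rests on 5 UMIs, too few to tell it from that group. Meis2 was at 31.3 CPM in WT, from 7 UMIs, and at 359 in KO, from 440, against 1062 and 861 in the others. Gad1 and Gad2 were at 0 and 22.3 CPM in WT and at 60.3 and 79.1 in KO in these neurons. The KO sums include the 3 Gad nuclei with a median of 95452 UMIs and 8 nuclei of mixed gates with Gad, 4 with a median of 26907 and 4 with a median of 23122, whose part in the KO levels of Gad1, Gad2 and Meis2 was not tested.

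In Slc17a6 nuclei 13 factors were measured, 2 were higher in KO (Ebf1 and Tshz1) and 1 lower (Bcl11b), against 3.52% of 5054 genes higher and 3.09% lower (6.61% either way), with a median log2 ratio of -0.06 against 0.00. Ebf1 was at 48.8 CPM (65 UMIs) in WT and 83.7 (125 UMIs) in KO, a log2 ratio of 0.78 (0.34 to 1.24). Tshz1 was at 49.5 and 74.4 CPM (0.59, 0.13 to 1.05) and Bcl11b at 94.6 and 50.9 (-0.89, -1.32 to -0.47). Beside these, oligodendrocyte markers summed to 113 CPM in WT and 281 in KO (4 of 4 higher in KO, none at 0) and of 4 vascular markers 3 were at 0 in WT and 2 in KO, with Vtn at 2 and 10 UMIs. Ebf1 was at 1583 and 1806 CPM in vascular nuclei. Their part in the ratios was not tested.

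Within the Gad strata, 1.5-fold was passed by 1 of 22 factors in striatal-type nuclei, against 5.41% of genes (2.99% higher, 2.42% lower): Sp9 was at 15.9 CPM in WT and 25.9 in KO (log2 ratio 0.71, 0.47 to 0.94). In Nxph1 nuclei it was passed by 4 of 18, against 4.79% (2.37% higher, 2.42% lower). Tshz2 was at 120 and 206 CPM (0.78), Zfhx4 at 35.9 and 56.9 (0.67), Meis2 at 242 and 141 (-0.78) and Foxp2 at 87.8 and 55.6 (-0.66). In Adarb2 nuclei 1 of 26 did so, against 4.54% (2.09% higher, 2.45% lower), with Dlx5 at 17.2 and 10.1 CPM (-0.77). Nuclei past several strata had 2 of 26, against 5.58% (2.36% higher, 3.22% lower), namely Lhx8 at 10.9 and 6.91 CPM (-0.65) and Etv1 at 33.9 and 21.5 (-0.66). Nuclei past none had 2 of 24, against 4.58% (2.43% higher, 2.15% lower), namely Sox6 at 71.9 and 114 (0.66) and Lhx6 at 11.5 and 7.55 (-0.61). Dlx1, below the minimum there, had 18 UMIs in WT and 39 in KO in the last stratum. No factor passed 1.5-fold in more than 1 stratum.

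A list of 52 other regional transcription factors was measured the same way. In Gad nuclei 32 had at least 100 UMIs, and Npas1 was higher in KO (7.09 and 11.5 CPM, log2 ratio 0.69) and Etv5 lower (47.5 and 28.7, -0.72). In Slc17a7 nuclei 26 were measured, 0 were higher and 1, Nfix, was lower (65.4 and 40.3 CPM, -0.70). In Slc17a6 nuclei 13 were measured and Sox5 was higher (67.5 and 118 CPM, 0.80). Npas1 is a bHLH-PAS factor of interneurons and Sox5 a relative of Sox6.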

How the data were processed

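Single-nucleus libraries of the 5' kit, version 2, were read from the mouse amygdala, 1 per genotype. The deposited values were raw UMI counts per gene and nucleus, made by the authors with Cell Ranger 6.0.0 and the mm10 build, per the submitters' processing notes. No source used here states the annotation version, the use of strand or the handling of intronic reads.

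Nuclei with fewer than 500 genes (12 WT, 143 KO) or over 5% mitochondrial UMIs (257 and 390) were left out, then doublets called by Scrublet in scanpy 1.11.5 at a rate of 0.8% per 1000 nuclei (422 and 222). Gates, strata and sums were computed with python 3.11.15, numpy 2.4.6 and scipy 1.17.1, and figures with matplotlib 3.10.9. Glial gates took nuclei with at least 5 UMIs of their markers and 0 of the transporters, Gad1 and Gad2. Thinning to 4000 UMIs left out 256 WT and 190 KO Gad nuclei, and thinning to 1000 left out 3 and 7. Scripts were tested on simulated data. Symbols matched 32158 of 32285 gene IDs. Some genes used in a marker set or ranked beside a factor are not reported here.

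All 36 members were accounted for, and full values were given for those with at least 100 UMIs and the highest levels, for all past 1.5-fold and for 25 pairs chosen by name. Members and lists were chosen with earlier results of these data known, and the Sim1 nuclei were examined after its ratio was seen. Alternatives covered the gates, doublets, scaling, thinning, stratum weights and the UMI minimum.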

Additional observations from a re-analysis of the deposited data

Results flagged for a closer look

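For 5 factors, KO over WT log2 ratios lay on opposite sides of 0 in a pair of neuron groups with the 95% counting interval of each clear of 0, and the difference between groups was not tested for any of them. Foxp2 was at -0.70 in Slc17a7 nuclei and 0.33 in Slc17a6 nuclei. Tshz1 was at -0.69 in Slc17a7 nuclei, 0.59 in Slc17a6 nuclei and -0.20 in Gad nuclei. Tshz2 was at -0.37 in Slc17a7 nuclei and -0.24 in Slc17a6 nuclei, against 0.42 in Gad nuclei. Ebf1 was at -0.52 in Slc17a7 nuclei, 0.78 in Slc17a6 nuclei and -0.09 in Gad nuclei. Satb1 was at -0.36 in Slc17a7 nuclei and 0.23 in Gad nuclei. Foxp2 in Gad nuclei and Satb1 in Slc17a6 nuclei had intervals that took in 0. Each value compares 1 library with 1 library.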

How the results depend on the processing

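Over 8 alternatives, 9 of 9 ratios past 1.5-fold kept their sign, and 1 of them, Sim1 in Slc17a7 nuclei, stayed past it in all 8, at log2 ratios of 1.82 to 2.57. These 8 do not include other minimums of UMIs, and with at least 500 UMIs Sim1 was not measured. Of all 64 ratios, 43 kept their sign. The counts of factors by highest group stayed within 1.5 times in 24 of 24 recomputations, and 121 of 144 highest strata were kept under other stratum minimums. In Gad nuclei, the count higher in KO went from 2 to 0 with the same stratum weights, and the count lower in KO from 0 to 1 with at least 3 marker UMIs. In Slc17a7 nuclei, the count higher went from 1 to 0 with at least 500 UMIs. The count lower there went from 3 to 1 with at least 1 marker UMI, with at least 500 UMIs and with thinning to 4000 UMIs, and to 6 with at least 20 UMIs. In Slc17a6 nuclei, the count higher went from 2 to 1 with all marker UMIs from the own marker, with at least 1 or at least 3 marker UMIs, with doublets kept and with median-of-ratios scaling. It went to 4 with at least 20 UMIs, and to 0 with at least 500 UMIs and with thinning. The count lower there went from 1 to 0 with at least 1 marker UMI, with at least 500 UMIs and with thinning, and to 2 with at least 20 UMIs. Other minimums of UMIs change how many genes are measured, and for the rest the cause was not tested. As alternatives chosen after seeing the data, the share of neurons with Sim1 was 0.454% in WT and 2.02% in KO at 2 UMIs, 0.151% and 1.53% at 5 UMIs, and 0.316% and 1.92% with doublets kept. No paired analysis was possible because each genotype has 1 library. Intervals cover counting error only, and depth limits the factors with few UMIs, such as Sp8, Otp, Ebf3 and Zic1.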
